A study of Rattus norvegicus and Mus musculus with 251 samples.

Results

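Mice that had drunk morphine and were killed 2 weeks (label Mor + 2W) after it were compared with mice given saline, in the nucleus accumbens (NAc). The libraries were chosen by their labels alone, without any measured value: 8 libraries labelled Mor + 2W, from 3 females and 5 males, and 7 labelled Sal, from 3 females and 4 males. They are 15 of the 251 libraries of the series and 15 of its 32 mouse NAc libraries. The 6 libraries fitted alone as females are all the females of the 2 groups. That fit was also asked for because they share an off state of some pseudogenes, seen earlier in these data. The series sequenced RNA from the NAc and the prefrontal cortex (PFC) of mice and from cortex, NAc and SCN (so labelled) of rats, with saline mice and naive rats beside the opioid groups, and only the mouse libraries are used here. All mice carry the strain label C57BL6J, and both groups took their solution by drinking, saline or morphine. The other mouse NAc groups, used for 2 direct comparisons further on, were killed 24 h after morphine (Mor + 24h, 4 females and 5 males) or labelled Chronic mor (3 females and 5 males). Doses, ages and the exact hour of death are not given in the sources used here. The question is which genes of the NAc still differed from saline mice after 2 weeks without the drug.

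The NAc is the ventral part of the striatum, and most of its neurons are GABAergic projection neurons that carry D1 or D2 dopamine receptors. Opioids act on mu opioid receptors on these neurons and on their inputs, through Gi and Go proteins that lower cyclic AMP. Withdrawal is known for a rebound of cyclic AMP signalling and for changes of immediate early genes, opioid peptides and stress-related genes in this region.

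The labels name the cell type as neuron, but the protocol describes tissue punches, and the punches held glia as well. Oligodendrocyte markers (Mbp, Mog and others) summed to 5868 to 10700 CPM (gene counts scaled to library size) in saline and 4448 to 12570 in the 2-week libraries. Astrocyte and microglial markers were also present in every library, and no marker of any cell type tested was at 0 in a whole group. The summed level of 7 projection neuron markers was 1866 to 5457 CPM in the 2-week libraries and 1842 to 4132 in 5 saline libraries, but only 622.6 in saline female 2 and 218 in saline male 6. Oxytocin (Oxt), a hypothalamic peptide gene, stood at 33.9 CPM in saline 2 and 51.8 in saline 6 and at most 10.2 in the others. Pmch, another hypothalamic peptide gene, did not follow this split: it stood at 233.6 CPM in saline 6, 81.4 in 2-week female 9 and 11.5 in 2-week female 10, and at 0.47 in saline 2. Saline 2 and 6 are kept, and some results that depend on them are also given without them. Others, such as the values of Penk, Egr1 and Per2, are given only with them. In bulk tissue, fewer cells of a type and less RNA per cell cannot be told apart. The 15 libraries held 24922258 to 43963295 counts in genes (medians 28318337 for saline and 33536636 for 2 weeks), and all 15 matched their sex labels by Xist and the Y-linked Ddx3y. Among the other mouse libraries, the library labelled chronic female 27 did not: it had 1.06 CPM of Xist and 80.0 of Ddx3y in the NAc. The labels number the libraries without naming animals, so p-values measure the spread between these samples.

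**Figure D1:**
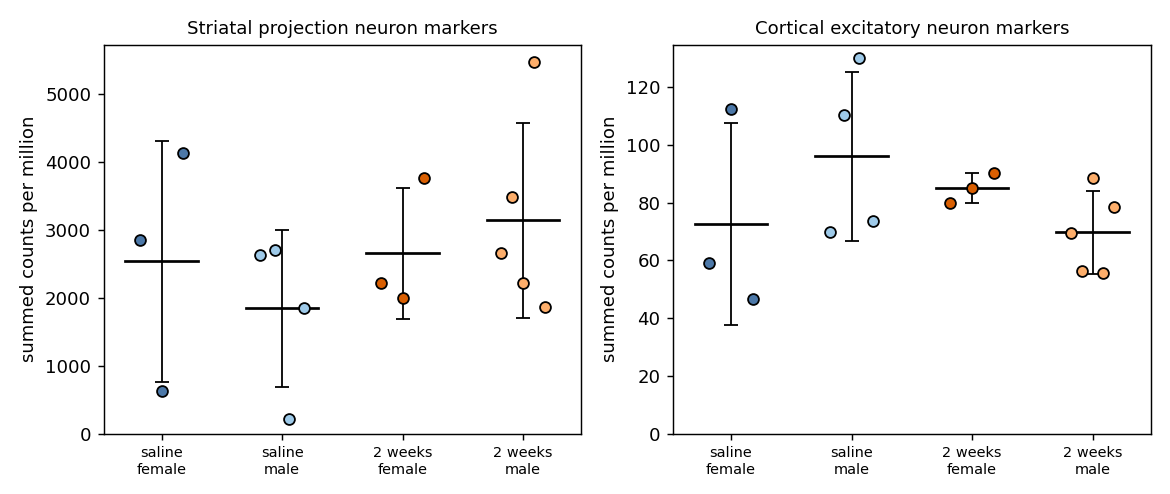
Summed CPM (linear axes) of 7 striatal projection neuron markers and of 8 cortical excitatory neuron markers in each of the 15 NAc libraries, by group and sex, with the mean and SD of each set. Saline 2 and 6 lie below all other libraries for projection neuron markers, at 622.6 and 218 CPM, while the cortical sums are 46.7 to 130 in saline and 55.6 to 90.0 after 2 weeks.

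Averaged over the sexes, 1 of 18382 genes tested differed between 2 weeks and saline (0.00544%, edgeR quasi-likelihood test, Benjamini-Hochberg adjusted p under 0.05). This gene was Hps1, which was lower after morphine. Hps1 encodes a subunit of BLOC-3, the complex that activates Rab32 and Rab38 on the way to lysosome-related organelles such as melanosomes. It lies at chr19:42755105-42779978 on the minus strand (GRCm38) and overlaps the antisense gene Gm16244, so reads of the 2 genes may be mixed.

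Saline females held 13.2, 11.3 and 11.3 CPM of Hps1 (11.9 ± 1.10, SD, n = 3), and 2-week females 4.15, 4.13 and 5.04 (4.44 ± 0.52, n = 3). Saline males held 6.17, 6.74, 6.82 and 10.04 CPM (7.45 ± 1.76, n = 4), and 2-week males 4.58, 4.26, 6.46, 5.44 and 5.29 (5.20 ± 0.85, n = 5). The female groups were far apart, and among the males 1 library, 2-week male 13, reached above the lowest saline male. The saline females also lay above every other NAc library. The highest values were 10.04 CPM in saline males, 9.98 at 24 h and 8.51 under chronic morphine. The part of genotype in this split was not tested. Over both sexes Hps1 fell by 0.97 ± 0.12 (SE) on the log2 scale (p = 5.39e-09, adjusted p = 9.9e-05, edgeR). The point estimate was larger in females, -1.43 ± 0.16 when they were fitted alone, than in males, -0.52 ± 0.18. Neither of those separate fits passed the threshold for Hps1 (adjusted p = 0.11 and 0.506, edgeR), and the test of the difference between the sexes gave p = 0.000623 and an adjusted p of 0.789. Hps1 stayed called in all 41 alternative settings tried for the averaged comparison, with log2 changes from -1.03 to -0.88. Of these, 32 were fits without 1 NAc library, some of them a 24 h or chronic library. None left out the 3 saline females together, so dependence on that set was not tested.

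**Figure D2:**
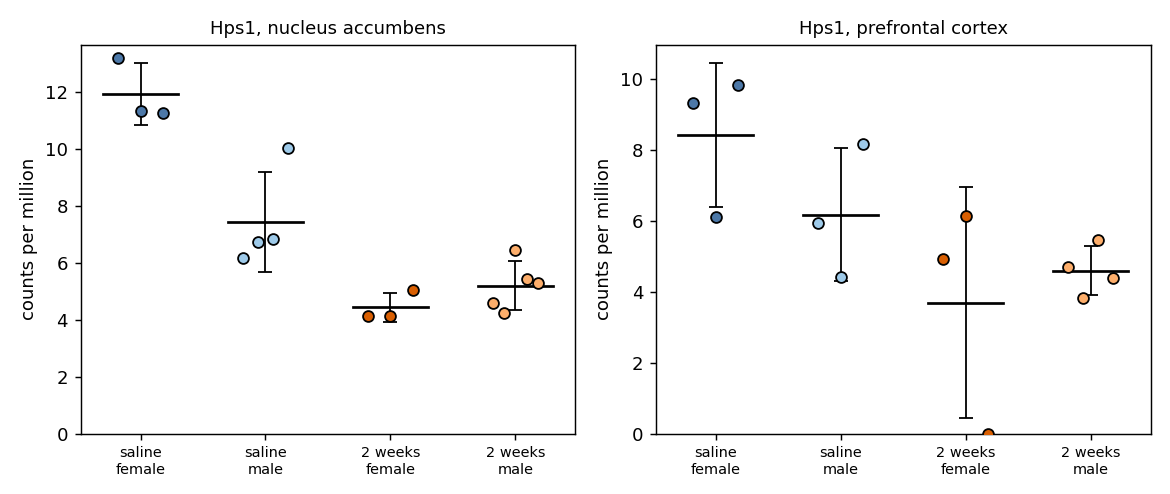
Hps1 CPM in each library of the NAc and the PFC, by group and sex, with the mean and SD of each set. In the NAc the 3 saline females lie between 11.3 and 13.2 CPM and all 2-week libraries between 4.13 and 6.46.

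No other gene of its pathway was called. Of 18 genes measured from the BLOC and lysosome-related organelle list, Hps1 was the 1 called, 7 had a log2 change above 0, and the median was -0.04, beside 0.001 over all genes tested. Hps4, the other subunit of BLOC-3, was at -0.02 ± 0.09 (adjusted p = 0.973, edgeR). Bloc1s2 and Dtnbp1 (dysbindin), both of BLOC-1, were at 0.23 ± 0.09 and 0.18 ± 0.08, and neither was called. Rab38, a target of BLOC-3, was at -1.31 ± 0.76 (adjusted p = 0.848) with a wide error.

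No other gene passed the adjusted threshold over both sexes, and 1183 genes (6.44% of those tested) had an unadjusted p under 0.05, 530 of them higher (2.88%) and 653 lower (3.55%). The genes nearest the threshold with the same direction in both sexes are given with their values, although none was called. Pycrl, an enzyme of proline synthesis, ranged from 14.9 to 20.8 CPM in saline (median 18.6, n = 7) and from 6.37 to 14.3 in the 2-week libraries (median 9.11, n = 8). Its groups did not overlap, and the log2 change was -0.87 ± 0.17 (adjusted p = 0.0724, edgeR). Idua, the lysosomal iduronidase, ranged from 9.12 to 14.7 CPM in saline (median 13.4) and from 6.90 to 11.6 after 2 weeks (median 8.71). These groups overlapped (log2 change -0.53 ± 0.10, adjusted p = 0.0676), and Idua shares its locus with Dgkq and Slc26a1.

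Among genes with higher levels, Banp, which encodes a DNA-binding protein of CpG-rich promoters, ranged from 14.9 to 20.3 CPM in saline (median 17.2) and from 21.7 to 30.4 after 2 weeks (median 24.0). The groups of Banp did not overlap, with a log2 change of 0.54 ± 0.11 and an adjusted p of 0.135 in edgeR. The mitochondrial gene mt-Nd6 likewise did not overlap, with 60.8 to 90.3 CPM in saline, 91.4 to 112.2 after 2 weeks and a log2 change of 0.43 ± 0.09 (adjusted p = 0.135). P4ha1 (a collagen prolyl hydroxylase), Sdf2l1 (an endoplasmic reticulum chaperone partner), Opa3, Ccar1 and the lens crystallin gene Crybb1 had log2 changes of 0.36 ± 0.08, 0.49 ± 0.11, 0.21 ± 0.05, 0.24 ± 0.06 and 0.62 ± 0.16, with adjusted p between 0.135 and 0.255. Lower levels with adjusted p between 0.135 and 0.155 were found for Dus3l (-0.22 ± 0.05), Iqce (-0.30 ± 0.07), Dennd6b (-0.38 ± 0.09), Gm12258 (-0.39 ± 0.09), Gm5869 (-0.38 ± 0.09) and Mroh7 (-0.95 ± 0.21). Groups without overlap were rare: 18 genes (0.0979%) had CPM ranges of the 15 libraries that did not overlap. Higher in every 2-week library were 5 of them (0.0272%): Banp, mt-Nd6, Crybb1, Pdia4 and Noct, the last a regulator of RNA turnover with a daily rhythm (50.6 to 57.6 CPM in saline, 57.6 to 71.7 after 2 weeks). Lower were 13 (0.0707%), among them Pycrl, Iqce (25.9 to 32.7 against 20.7 to 24.9 CPM), Gpaa1 (28.7 to 33.0 against 24.6 to 27.99), Srsf5 (148.7 to 189.8 against 126.1 to 144.0) and the kinase gene Sgk1; Gpaa1, Srsf5 and Noct were chosen after their values were seen.

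In the females alone, 3 saline against 3 2-week libraries, 3 of 16622 genes were called (0.018%): mt-Nd3 and Gabra2 rose and Gm28438 fell. mt-Nd3 encodes a subunit of complex I of the respiratory chain and lies at chrM:9459-9806 on the plus strand. Gm28438, at chr1:24612775-24613119 on the minus strand, is a pseudogene copied from mt-Nd3, and the copies differ at 1 of 345 bases (99.7% identity), so the assignment of reads between them is uncertain. The first 33 bases of both genes (GRCm38, GENCODE M21 transcripts, 5′ to 3′) are shown because they hold the single base by which a read can be told apart, given in capitals.
mt-Nd3, chrM:9459-9491 plus strand: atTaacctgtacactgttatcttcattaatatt
Gm28438, chr1:24613087-24613119 minus strand: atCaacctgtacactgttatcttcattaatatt
The difference is T3C, counted from 1 at the 5′ end of these stretches with the mt-Nd3 base first, and it falls on mitochondrial position 9461.

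mt-Nd3 stood at 0.65, 0.40 and 0.32 CPM in the saline females and at 8.65, 12.2 and 9.08 in the 2-week females (log2 change 4.45 ± 0.31, adjusted p = 0.00878, edgeR). Gm28438 showed the mirror image, with 17.9, 15.5 and 17.9 CPM in the saline females and 0.82, 0.86 and 0.40 in the 2-week females (-4.63 ± 0.28, adjusted p = 0.0058). The saline males were on the side of the morphine mice for both genes: 6.38 to 8.88 CPM of mt-Nd3 and 0.29 to 0.62 of Gm28438, beside 4.88 to 11.6 and 0.39 to 0.82 in the 2-week males. The 3 saline females therefore stood apart from all 12 other libraries, in both sexes and both treatments. Low levels in saline females were also seen for mt-Nd4l (0.37 to 0.42 CPM, against 0.83 to 2.34 in the other 12) and mt-Tr, a mitochondrial tRNA at 0 in the 3 saline females and at least 12.9-fold higher in the 2-week females against a floor of 3 counts over the group; neither was called. Position 9461 of the mitochondrial genome is known as a site that differs between C57BL/6J and C57BL/6N mice. Levels like those of the saline females also occurred in the other morphine groups. mt-Nd3 ranged from 0.27 to 10.2 CPM at 24 h and from 0.17 to 11.7 under chronic morphine (medians 7.43 and 0.60). Gm28438 ranged from 0.15 to 17.1 and from 0.79 to 21.9 CPM (medians 0.78 and 15.4). Genotype was not tested, and in the saline and 2-week females it cannot be told apart from treatment.

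Gabra2 encodes the alpha2 subunit of GABA-A receptors, which is abundant in the NAc, and lies at chr5:70957597-71095849 on the minus strand. The saline females held 73.2, 54.3 and 70.3 CPM (65.9 ± 10.2, n = 3) and the 2-week females 203.3, 173.6 and 203.0 (193 ± 17, n = 3), a log2 rise of 1.55 ± 0.14 (adjusted p = 0.0339, edgeR). In males the groups overlapped: 61.0, 63.9, 109.0 and 71.9 CPM in saline, and 139, 91.0, 71.6, 89.3 and 148 after 2 weeks (0.50 ± 0.24, adjusted p = 0.506). Over both sexes the log2 change was 1.02 ± 0.25 (adjusted p = 0.209, edgeR). High levels of Gabra2 also occurred in the other morphine groups. It ranged from 48.5 to 179.7 CPM at 24 h (median 94.6) and from 81.2 to 247.2 under chronic morphine (median 138.9). C57BL/6J mice are known for low Gabra2 levels relative to other strains, and here too genotype was not tested. None of the other 11 GABA-A subunit genes measured was called in females, and the median of all 12 was 0.04. Npsr1, the neuropeptide S receptor, stood at 0.50, 0.80 and 0.29 CPM in saline females and 6.51, 5.32 and 4.05 in 2-week females without being called (adjusted p = 0.131), and it was called when saline 2 was left out (3.75 ± 0.40, adjusted p = 0.0326).

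**Figure D3:**
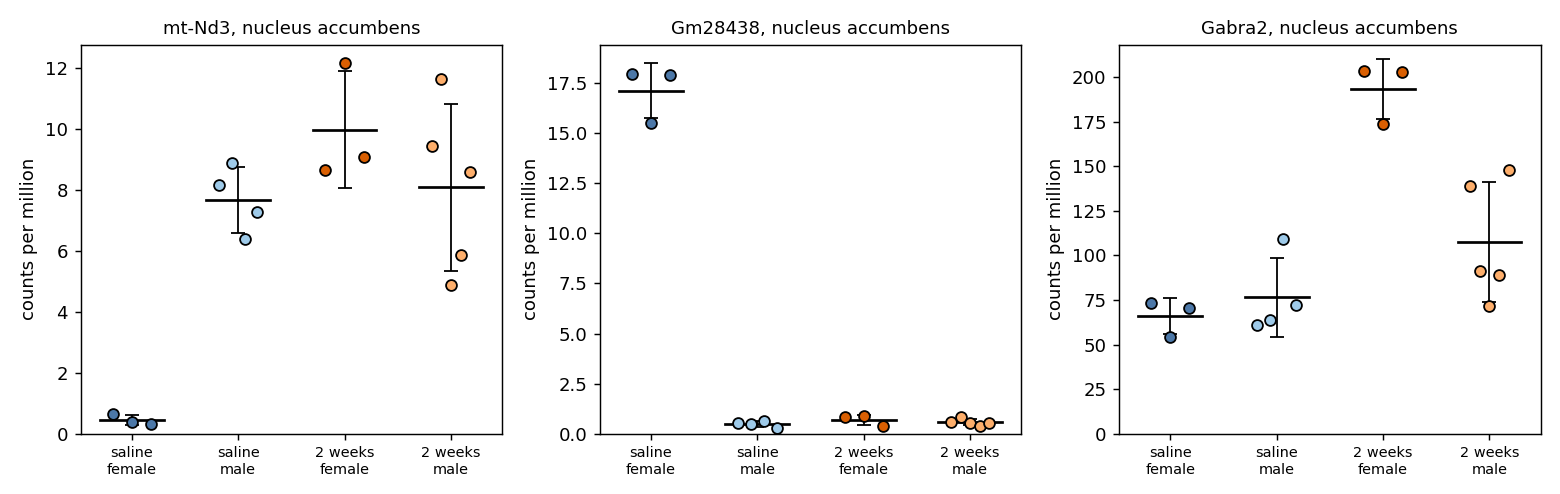
CPM of the 3 genes called in the females alone, in each library by group and sex (linear axes), with mean and SD. The saline females are low for mt-Nd3 and high for Gm28438 while the saline males resemble the 2-week libraries. Among these 15 libraries Gabra2 is highest in the 2-week females, at 173.6 to 203.3 CPM.

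These 3 calls rested on few libraries: none was made when saline 1, 2-week 8 or 2-week 9 was left out, and 8 genes were called without saline 2. In the fit of all 32 NAc libraries, the female contrast called 1 gene (0.00544%), Hps1 at -1.42 (adjusted p = 0.00035). The male contrast of that fit called 14 genes (0.0762%), 13 of them lower.

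In the males alone, 4 saline against 5 2-week libraries, 9 of 16519 genes were called (0.0545%) and all 9 were lower after morphine; DESeq2 on the same libraries called 41 higher and 48 lower. Of the 9 called by edgeR, 5 carry a near copy of the transcript of a ribosomal protein or complex I gene. Another 2 are annotated opposite genes of the major histocompatibility complex. Gm10260, at chr13:97760072-97760632 on the minus strand, is a copy of Rps18, a ribosomal protein gene, with 99.1% identity. Gm10036 (a copy of Rpl11, 99.3%) and Gm12901 (Rpl11, 90.7%, chr4:123258046-123258904, plus strand) also come from a ribosomal protein gene, as does Gm10263 (Rps28, 99.0%, chr13:73317844-73318143, plus strand). BC002163, at chr16:42955631-42955949 on the plus strand inside Zbtb20, is a copy of Ndufs5, a complex I subunit gene (99.4%). Gm7125 (chr15:68792320-68883576, plus strand) is a long noncoding RNA. Its transcript of 273 bases is also a near copy, of Hmgn2 (97.4%). BC023719 (chr17:36111426-36117121, plus strand) overlaps H2-T10, and A930015D03Rik (chr17:35994453-36038435, plus strand) overlaps H2-T22, H2-T23 and H2-T24. Mroh7 (chr4:106680417-106730925, minus strand) codes for a HEAT-repeat protein of little known function.

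Stretches of 3 of these copies and of their parent genes show how little separates a read of one from a read of the other (GRCm38, GENCODE M21 transcripts, 5′ to 3′, differing bases in capitals).
Ndufs5, chr4:123715969-123716029 minus strand: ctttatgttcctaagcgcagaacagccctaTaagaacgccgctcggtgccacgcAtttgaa
BC002163, chr16:42955681-42955741 plus strand: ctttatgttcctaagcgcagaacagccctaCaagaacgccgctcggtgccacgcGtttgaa
Rps28, chr17:33823225-33823285 minus strand: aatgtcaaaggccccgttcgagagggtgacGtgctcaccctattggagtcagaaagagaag
Gm10263, chr13:73317986-73318046 plus strand: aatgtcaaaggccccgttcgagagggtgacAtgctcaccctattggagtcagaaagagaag
Rps18, chr17:33952478-33952538 minus strand: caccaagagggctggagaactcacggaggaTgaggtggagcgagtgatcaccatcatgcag
Gm10260, chr13:97760373-97760433 minus strand: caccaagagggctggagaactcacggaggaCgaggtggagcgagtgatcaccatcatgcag
With positions counted from 1 at the 5′ end of each stretch and the parent base first, the differences are T31C and A55G for BC002163, G31A for Gm10263 and T31C for Gm10260. Over the whole aligned transcripts the copies differ at 2 of 319 bases, 3 of 300 bases and 5 of 545 bases, so reads could be split between copy and parent by the counting.

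Gm10260 stood at 21.6, 24.4, 20.7 and 21.3 CPM in the 4 saline males and between 0.28 and 0.65 in the 5 2-week males, a fall of 5.42 ± 0.18 on the log2 scale (adjusted p = 1.55e-07, edgeR). BC002163 stood at 15.9, 17.5, 17.96 and 13.7 CPM in the saline males and between 1.37 and 2.33 in the 2-week males (-3.13 ± 0.16, adjusted p = 5.19e-06). Gm10036 had 15.4 to 17.2 CPM against 0.85 to 1.70 (-3.78 ± 0.19, adjusted p = 5.19e-06). In all 3 genes the male groups were separated by a gap wider than the range within either group. Gm10263 had 8.14 to 11.1 CPM in the saline males and 0 to 0.48 in the 2-week males (adjusted p = 0.00209). BC023719 and Gm12901 were at least 374-fold and at least 129-fold lower in the 2-week males, which had no read of either gene, against a floor of 3 counts over the group (adjusted p = 0.00042 and 0.00577). A930015D03Rik had 3.43 to 4.36 CPM against 0.30 to 0.97 (-2.71 ± 0.31, adjusted p = 0.00738), and Gm7125 had 0.68 to 1.97 CPM against at most 0.028 (adjusted p = 0.00438).

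The saline females were also at the low level of 8 of these genes. Their Gm10260 was 0.23 to 0.74 CPM, their BC002163 1.41 to 1.61 and their Gm10263 at most 0.067, within or close to the range of the 8 2-week libraries. So the 4 saline males, not the morphine mice, stood apart from the other 11 libraries. The females of both groups share the low state. This was known beforehand and was a reason to fit them alone, so it is not a new result. Of these genes, 4 (BC023719, Gm10263, Gm12901 and Gm7125) had too few reads to be tested in females. None was called there, which the shared state had already fixed. Mroh7 was less sharply split. It was 15.4 to 18.9 CPM in the saline males, 7.74 to 13.4 in the saline females and 3.42 to 9.79 in the 2-week libraries (median 7.03, n = 8). The saline males were thus above all other libraries for Mroh7 too, as in the PFC (4.70 to 6.25 CPM, at most 2.91 elsewhere). Its male change was -1.14 ± 0.16 (adjusted p = 0.0366, edgeR) and its female change -0.77 ± 0.38 (adjusted p = 1). The male call of Mroh7 was lost in 8 of 13 alternative settings, 7 of them fits without a single library (saline 4, 5, 6 or 7, or 2-week 11, 13 or 15) and the other the fit of 32 libraries, with adjusted p of up to 0.172. The parent gene Ndufs5 was 36.5 to 44.2 CPM in saline males, 49.5 to 54.0 in saline females and 45.1 to 57.1 in the 2-week libraries, and was not called in males (0.30, adjusted p = 0.506).

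**Figure D4:**
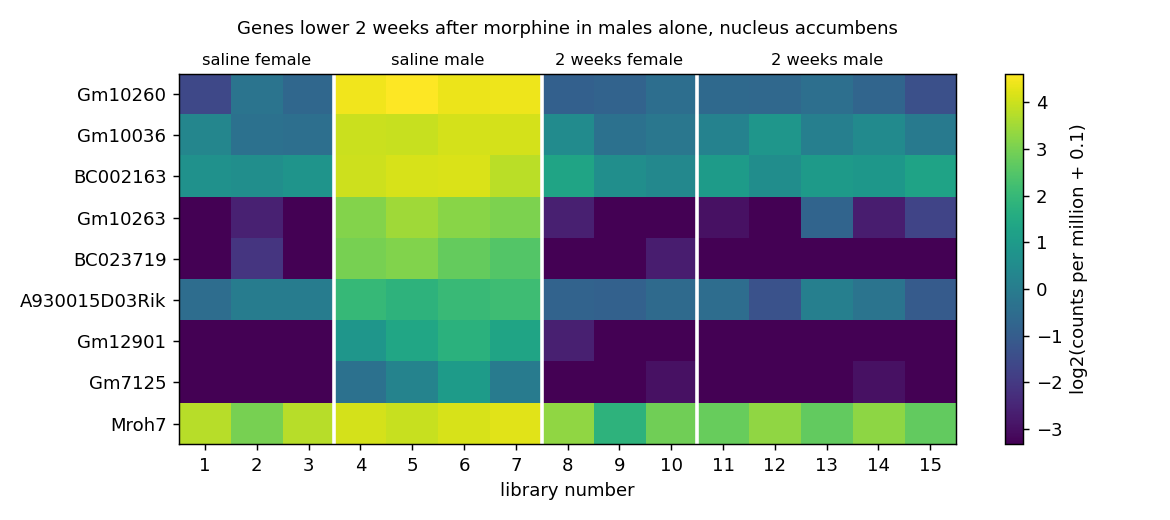
Heat map of log2(CPM + 0.1) for the 9 genes called in the males alone (rows) in each of the 15 NAc libraries (columns, by group and sex). For 8 of the genes the 4 saline males are high and the 11 other libraries low. Mroh7 varies less, from 15.35 to 18.9 CPM in the saline males and 3.42 to 13.4 in the others.

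AA465934 also differed between sets of libraries within a group: 17.03 to 23.02 CPM in saline females, 8.82 to 9.07 in saline males 4, 5 and 6, 2.66 in saline male 7, 8.52 and 7.79 in 2-week females 8 and 9 and 1.03 to 2.09 in the other 6 2-week libraries (averaged log2 change -1.97 ± 0.43, adjusted p = 0.135, edgeR). 1500015A07Rik, antisense to Afap1l1, stood at 13.2 to 18.6 CPM in 2-week libraries 9, 10, 13 and 14 and at 2.12 to 4.56 in the other 11. The part of shared ancestry of mice in these patterns was not tested.

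A direct test of whether the morphine effect differed between females and males called 0 of 18382 genes (0%, edgeR, adjusted p under 0.05). At an unadjusted p under 0.05 there were 826 genes (4.49%), the smallest adjusted p was 0.107, for the Rpl4-like gene Gm5835, and DESeq2 called 7. A difference between the sexes was therefore not shown for the genes called in one sex alone.

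The gene lists chosen for this tissue and drug gave no member called over both sexes other than Hps1, and their medians are read beside the 5th to 95th percentile of single genes, -0.66 to 0.45, and the share of all genes above 0, 50.3%. Chaperone genes of the heat shock and endoplasmic reticulum lists had the most even direction: 17 of 17 had a log2 change above 0 over both sexes, 17 in females and 14 in males, with medians of 0.21, 0.14 and 0.25. At an unadjusted p under 0.05 there were 7 of 17 higher and none lower, beside 2.88% of all genes higher. Pdia4, a disulphide isomerase, ranged from 36.4 to 45.5 CPM in saline (median 41.6) and 45.8 to 63.4 after 2 weeks (median 52.6), without overlap (0.33 ± 0.09, adjusted p = 0.307). Xbp1, the transcription factor of the unfolded protein response, ranged from 79.7 to 93.5 CPM and from 91.7 to 108.1 (0.21 ± 0.06, adjusted p = 0.366). Hspa5 (BiP) ranged from 321.1 to 461.2 and from 392.6 to 525.8 (0.26 ± 0.08, adjusted p = 0.405). Without saline 2 and 6 the 17 genes were still all above 0, with a median of 0.17 and 8 at an unadjusted p under 0.05. The list holds Hspa8, which was at 416.5 to 502.4 CPM in the saline females and 670.4 to 885.5 in the other 12 libraries; the part of this split in the list was not tested.

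Mitochondrially encoded genes were above 0 for 12 of 13 over both sexes (median 0.28). At an unadjusted p under 0.05 in edgeR 8 were higher and 1 lower, beside 2.88% and 3.55% of all genes. The list includes mt-Nd3 and mt-Nd4l (1.33 ± 0.25, adjusted p = 0.0571), in which the saline females stood apart. mt-Nd5 and mt-Co1 had log2 changes of 0.30 and 0.32, and mt-Atp6 went the other way at -1.0 ± 0.37 (adjusted p = 0.58). Over both sexes without saline 2 and 6 the median of the 13 was 0.20. In females alone 8 were higher at an unadjusted p under 0.05 in edgeR (median 0.35), and in males alone 2 (median 0.20).

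The genes of dopamine signalling and projection neurons were above 0 for 17 of 18, with a median of 0.35 and none at an unadjusted p under 0.05. Drd1, the D1 receptor, ranged from 9.51 to 212.2 CPM in saline and from 91.8 to 262.9 after 2 weeks (0.35 ± 0.50). Drd2 ranged from 11.4 to 106.7 and from 52.7 to 146.1 (0.39 ± 0.42). The lowest saline values of both genes belong to the libraries low in projection neuron markers, and without saline 2 and 6 the median of the 18 was 0.01, with 10 above 0. In females alone the median moved from 0.01 to -0.38 when saline 2 was left out, and in males alone from 0.72 to 0.37 without saline 6.

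Opioid receptor, peptide and effector genes were split, 10 of 19 above 0 with a median of 0.06. Oprm1, the mu receptor on which morphine acts, ranged from 2.63 to 7.42 CPM in saline (median 3.26) and from 2.83 to 7.22 after 2 weeks (median 5.01), ranges that overlapped almost wholly (0.35 ± 0.20, adjusted p = 0.849). Oprd1, the delta receptor, had medians of 11.6 and 15.5 CPM (0.48 ± 0.22, adjusted p = 0.715), and Arrb2, which encodes beta-arrestin 2, was at -0.26 ± 0.10 (adjusted p = 0.58). Penk, the enkephalin precursor, ranged from 201.0 to 1548 CPM in saline and from 798.6 to 1806 after 2 weeks (0.40 ± 0.39, adjusted p = 0.917). Cyclic AMP and CREB genes were above 0 for 14 of 19 (median 0.06), ionotropic glutamate receptor genes for 9 of 15 (0.05), GABA-A subunit genes for 8 of 12 (0.07) and plasticity and neurotrophin genes for 13 of 17 (0.09).

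Immediate early genes, transcription factors and effectors switched on by neuronal activity, were above 0 for 12 of 18 with a median of 0.35, and 1 of them had an unadjusted p under 0.05. Egr1 ranged from 84.6 to 254.4 CPM in saline (median 149.7) and from 167.5 to 407.7 after 2 weeks (median 202.0), with overlap (0.59 ± 0.29, adjusted p = 0.775). Fos ranged from 17.1 to 30.2 and from 16.9 to 26.3 CPM (-0.09 ± 0.19, adjusted p = 0.956). The list median was 0.11 in females and 0.65 in males, where 6 genes were higher at an unadjusted p under 0.05 (4.95% of all genes in males); it was 0.17 over both sexes without saline 2 and 6, and 0.45 in males without saline 6. Clock genes were above 0 for 15 of 16 (median 0.08), 6 of 16 in females and 16 of 16 in males (medians -0.07 and 0.25), and 9 of 16 without saline 2 and 6 (median 0.01). Per2, a clock repressor, had medians of 32.6 and 48.6 CPM (0.40 ± 0.20, adjusted p = 0.802).

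Glucocorticoid-induced genes went both ways, with 8 of 15 above 0 and a median of 0.01. Sgk1, a kinase induced by glucocorticoids, ranged from 89.6 to 130.1 CPM in saline (median 97.3) and from 58.9 to 83.4 after 2 weeks (median 73.3). Its groups did not overlap (-0.51 ± 0.15, adjusted p = 0.357). Zbtb16, a zinc finger factor also induced by glucocorticoids, ranged from 6.54 to 12.04 CPM and from 10.2 to 29.5 (0.87 ± 0.26, adjusted p = 0.357). Interferon response genes were above 0 for 11 of 15 with a median of 0.35. In females and in males alone 9 of 14 were above 0, with medians of 0.05 and 0.41. Among them H2-K1, a class I histocompatibility gene, had medians of 21.1 and 27.8 CPM (0.44 ± 0.18, adjusted p = 0.652). Within saline it was 12.3 to 21.1 CPM in males and 23.8 to 29.1 in females.

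**Figure D5:**
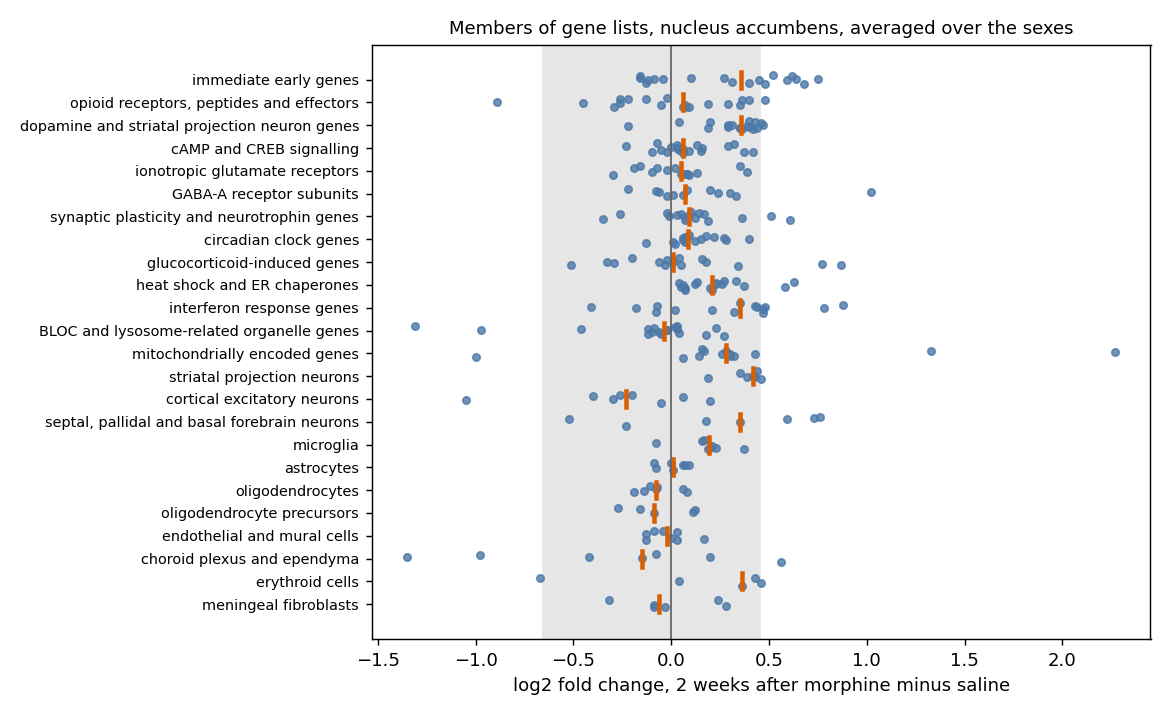
Log2 change, 2 weeks minus saline over both sexes, of each measured member of the gene lists and cell type marker lists (points, spread vertically for display), with list medians as orange bars, the median of all genes as a grey line and their 5th to 95th percentile as a grey band. All 17 chaperone genes lie above 0, and the gene past the adjusted threshold is Hps1 at -0.97 in the BLOC row.

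The 2-week libraries were also compared directly with the libraries of the 2 other morphine groups, which removes the saline libraries from the contrast; both comparisons share the 2-week libraries. Against 24 h after morphine, 49 of 18382 genes were called (0.267%), 17 higher and 32 lower at 2 weeks. Against chronic morphine, 345 were called (1.88%), 193 higher and 152 lower (173 and 168 with median-of-ratios size factors). Leaving out the library labelled chronic female 27 gave 47 and 206 calls, and 46 and 195 of these were among the genes called with it. Without the 4 NAc libraries low in projection neuron markers, 37 and 436 were called, of which 32 and 264 were shared with the first counts, and against chronic morphine the lower calls then outnumbered the higher, 239 to 197.

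Hps1 was lower at 2 weeks than at 24 h, where it ranged from 6.53 to 9.98 CPM (median 7.96, n = 9), and than under chronic morphine (5.64 to 8.51, median 7.63, n = 8). The changes were -0.75 and -0.59 (adjusted p = 0.000483 and 0.00381, edgeR). Idua was lower as well, at 24 h 10.4 to 15.01 CPM and under chronic morphine 12.2 to 15.9, with changes of -0.60 and -0.65 (adjusted p = 0.00153 and 0.000278). Idua was thus below each of these groups and not called against saline (adjusted p = 0.0676). Pycrl also fell in both comparisons (adjusted p = 0.0114 and 0.0121).

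Fos was higher at 2 weeks than in the other morphine groups and close to saline. It ranged from 7.46 to 19.4 CPM at 24 h (median 10.3) and from 5.95 to 16.1 under chronic morphine (median 9.35), against 16.9 to 26.3 at 2 weeks (median 20.5). The log2 changes were 0.96 ± 0.18 and 1.06 ± 0.19 (adjusted p = 0.0082 and 0.00151, edgeR). Set against saline, where 0.163% of genes were called at 24 h and 1.69% under chronic morphine, Fos was at -1.05 at 24 h (adjusted p = 0.0176), -1.15 under chronic morphine (adjusted p = 0.00201) and -0.09 at 2 weeks; these comparisons share the saline libraries. Against chronic morphine 6 of the 18 immediate early genes rose: Fos, Fosl2, Nr4a1, Nr4a3, Arc and Klf4, the other 5 by 1.08 ± 0.27, 1.23 ± 0.33, 1.27 ± 0.33, 0.98 ± 0.26 and 0.60 ± 0.16 (adjusted p = 0.031, 0.0471, 0.043, 0.0464 and 0.0471). The list median was 0.70, beside a share of called genes of 1.88% over all genes. Without the library labelled chronic female 27, Fos, Fosl2 and Nr4a3 stayed called, and Arc, Nr4a1 and Klf4 were at adjusted p = 0.0961, 0.0828 and 0.151.

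Npsr1, the receptor of the arousal peptide neuropeptide S, was 0.24 to 1.52 CPM at 24 h and 0.14 to 2.02 under chronic morphine, and 0.85 to 6.51 at 2 weeks. It was higher at 2 weeks in both comparisons (2.49 and 2.16, adjusted p = 0.00774 and 0.0129), and at an adjusted p of 0.0548 in the second without the library labelled chronic female 27. Chaperone genes Dnajb1 and Hspa1a rose against chronic morphine, by 0.46 ± 0.08 and 1.63 ± 0.34 (adjusted p = 0.00073 and 0.00667). H2-K1 rose by 1.36 (adjusted p = 3.3e-05), from 7.23 to 16.4 CPM under chronic morphine to 22.5 to 38.0 at 2 weeks; the ranges did not overlap. H2-T22, a nonclassical class I gene, rose by 1.92 (adjusted p = 2.33e-05), and Rab11b, of recycling endosomes, by 0.49 (adjusted p = 1.63e-05). For H2-K1, H2-T22 and Rab11b the saline males were also low. H2-K1 was 12.3 to 21.1 CPM in them and 23.8 to 29.1 in saline females. H2-T22 was 4.78 to 8.17 CPM in saline males, 7.74 to 12.8 in saline females, 8.49 to 12.7 at 2 weeks and 1.61 to 7.62 under chronic morphine. Rab11b was 84.2 to 90.2, 104.4 to 112.1, 98.9 to 114.7 and 66.3 to 94.1 CPM in the same order. At the 24 h comparison Zfp35, Rpl3-ps1 and Slc25a25, a mitochondrial carrier gene, rose by 0.34, 0.60 and 0.25 (adjusted p = 0.00197, 0.00713 and 0.0082).

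The genes with on and off states led the lower calls here too. Gm10036 fell by 3.70 and 4.72 and BC002163 by 2.72 and 3.81 on the log2 scale, against 24 h and chronic morphine (adjusted p = 1.36e-05, 1.36e-07, 0.000276 and 1.81e-06, edgeR). BC002163 was at 0.89 to 15.8 CPM in the 24 h libraries and 16.7 to 30.7 in the chronic ones, against 1.22 to 2.36 at 2 weeks. All chronic libraries were thus within or above the range of the saline males, while the 24 h libraries covered both states. Some parent genes were called the other way. Ndufs5 rose by 0.47 and 0.72 (adjusted p = 0.00197 and 3.44e-06, edgeR). Rps18, the parent of Gm10260, rose by 0.89 against chronic morphine (adjusted p = 1.81e-05, edgeR). The ranges of Rpl11, the parent of Gm10036, overlapped. They were 122.4 to 158.2 CPM at 2 weeks, 99.2 to 137.2 at 24 h and 99.4 to 143.3 under chronic morphine. Gm5869, a copy of Eef1a1, fell by 0.54 and 0.77 (adjusted p = 0.000544 and 2.53e-06). Wdfy1, an adaptor of endosomal Toll-like receptor signalling, fell by 1.36 and 2.02 (adjusted p = 0.00795 and 2.6e-05) and was at 11.5 to 16.4 CPM in 14 of the 15 saline and 2-week libraries, with 53.0 in saline male 6. Mroh7 fell by 1.61 against chronic morphine (adjusted p = 2.17e-05).

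In the PFC the same comparison, 3 females and 3 males given saline against 3 females and 4 males at 2 weeks, called 1 of 17966 genes (0.00557%), and 1 of 18536 without PFC library 10 (0.00539%), which has the lowest total count of the PFC libraries. That gene was Igsf6, an immunoglobulin superfamily gene of myeloid cells, at -3.89 (adjusted p = 0.0131, edgeR). A test of whether the 2-week change differed between NAc and PFC called 1 of 19266 genes (0.00519%), again Igsf6 (4.46, NAc minus PFC, adjusted p = 0.00803). Its fitted values depend on the prior count, since the 3 PFC females at 2 weeks had no read of it. The call of the difference was lost without PFC 2-week library 8 or 9. It was also lost with the library number as a replicate block (limma, 0 called).

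Hps1 in the PFC was 9.32, 6.10 and 9.84 CPM in saline females 1, 2 and 3 and 5.96, 4.42 and 8.17 in saline males 5, 6 and 7. At 2 weeks it was 4.94, 6.15 and 0 in females 8, 9 and 10 and 4.70, 3.82, 5.48 and 4.40 in the males. The PFC groups overlapped, and the change was -0.75 (p = 0.0402), or -0.52 (p = 0.0379) without library 10; neither was called. Gabra2 in the PFC was 33.6, 36.5 and 38.8 CPM in saline females and 109.5, 122.6 and 121.3 in 2-week females, without overlap. In PFC males it was 33.9, 75.1 and 34.0 CPM in saline and 76.0, 36.6, 37.0 and 72.4 at 2 weeks, nearly the same range (both sexes 0.95, p = 0.00205, adjusted p = 1, without library 10). As equal numbers may come from the same animals, these PFC values are not read as an independent repeat. The on and off genes mostly kept their state in the PFC. Gm10260 was 13.3, 13.1 and 20.5 CPM in the 3 saline males and at most 0.82 elsewhere, and Gm28438 was 11.7 to 14.6 CPM in the saline females. PFC library 10, a 2-week female, departed from this with 10.01 CPM of Gm28438 beside 9.83 of mt-Nd3. Pycrl and Sgk1 had PFC changes of -1.06 (p = 2.02e-05, adjusted p = 0.187) and -0.63 (p = 0.000431, adjusted p = 0.726) without library 10, on the same side as in the NAc.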

How the data were processed

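Gene counts of 62 mouse libraries were used, and the 189 rat libraries were not used here. The deposited table holds whole-number read counts per gene that the authors made from paired-end total RNA, per the labels' protocols; the aligner and counter behind it are not given in the sources used here, although the submitters' processing notes list FastQC, cutadapt, Trimmomatic, STAR, HISAT2, RSEM and the build GRCm38. Of 46078 gene IDs, 45229 matched GENCODE M21, and 0.064% of counts were unmatched. Rows naming no gene were left out (medians of 15 libraries: 5.5% no feature, 0.83% ambiguous, 15.4% not uniquely aligned, 0.34% low quality, 0.54% not aligned), so reads that align to more than 1 place are not among the counts. No libraries were identical. Whether counting used strand is not given in the sources used here.

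Counts were tested in R 4.3.3 with edgeR 4.0.16 (quasi-likelihood, TMM, filterByExpr) in a treatment-by-sex model of the 32 NAc libraries, with the sexes weighted equally, and called at a Benjamini-Hochberg adjusted p under 0.05. Females and males were also fitted alone, and NAc and PFC together for the difference between regions. CPM used TMM library sizes, and log2 CPM a prior count of 2. Genes were named if called, if among the 10 smallest p per direction with mean log2 CPM of at least 1 and 1 direction in both sexes, if among the 2 smallest p of a list, or if among the 5 smallest p per direction called against 24 h or chronic morphine; others, such as parent and partner genes, mt-Nd5, mt-Co1, Penk, Fos and other list members, were chosen after their values were seen. A few genes that met the rule are not reported here. Members and gene lists were chosen with earlier results of these data known. On simulated counts, known changes were given to genes with a mean CPM over 2. Of genes changed by 1 on the log2 scale, the averaged fit recovered 87% (18028 genes tested), the female fit 50% (16436) and the male fit 70% (16543). Apart from these changes each simulated gene had 1 mean level, so on and off states and punches low in projection neuron markers were not imitated. Alternatives used DESeq2 1.42.0, sva 3.50.0, limma 3.58.1, other covariates and fits without single libraries.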

Additional observations from a re-analysis of the deposited data

Results flagged for a closer look

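Over 64 genes and 128 groups of 7 or 8 libraries, 11 groups had 1 library far from the others by Dixon's criterion, which chance meets in about 1 in 20 groups. Saline male 6 was lowest for Crybb1 at 2.72 CPM (others 4.12 to 5.46), highest for Gabra2 at 109.0 CPM (others 54.3 to 73.2) and highest for Wdfy1 at 53.0 CPM (others 11.5 to 16.04). Saline female 2 was lowest for Mroh7 at 7.74 CPM (others 13.3 to 18.9), saline female 3 highest for P4ha1 at 62.5 CPM (others 47.1 to 51.4) and saline male 4 highest for the clock gene Nr1d2 at 119 CPM (others 99.4 to 107). Of the 2-week libraries, female 9 was lowest for Mroh7 at 3.42 CPM (others 6.38 to 9.79). Male 14 was lowest for Npsr1 at 0.845 CPM (others 2.95 to 6.51) and highest for Nptx2, a pentraxin of excitatory synapses, at 72.9 CPM (others 28.02 to 42.3). The last 2 rest on 2 reads each: female 10 had 0.0566 CPM of BC023719 and female 8 had 0.0629 CPM of Gm12901, with 0 in the other 7.

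The change of Igsf6 differed between the regions, by 4.46 on the log2 scale (NAc minus PFC, adjusted p = 0.00803, edgeR). This call was lost without PFC 2-week library 8 or 9, and with the library number as a replicate block (limma). In the NAc it was 0.27 to 0.84 CPM in saline and 0.21 to 1.44 after 2 weeks. In the PFC it was 0.26 to 1.01 CPM in saline, 0 in the 3 2-week females and 0.31 to 0.45 in the 2-week males.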

How the results depend on the processing

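For the change averaged over the sexes (1 gene called), median-of-ratios size factors, no filter, a cortical marker covariate and leaving out saline 2 and 6 each gave 1 call, while DESeq2 called 30 genes, the 15 libraries alone 14 (6 higher and 8 lower, Hps1 among them), an additive sex term 8, 2 surrogate variables 9 and a covariate for the on and off genes 11; leaving out 1 library at a time gave 1 to 5 (5 without 24 h 17, 3 without 2-week 13, 2 without each of saline 1 and 5, 2-week 10, 11, 12 and 14 and 24 h 16 and 22). In females (3 called) the count was 9 without the filter, 40 with DESeq2, 1 in the fit of 32 libraries and 0 to 8 without 1 library (1 without 2-week 10, 2 without saline 3). In males (9) it was 89 with DESeq2 (41 higher, 48 lower), 14 in the fit of 32 libraries and 8 to 12. The difference between the sexes (0) gave 7 with DESeq2 and 0 to 3 without 1 library (0 in 30 of 32 fits, 3 without 24 h 17). DESeq2 called 133 genes against 24 h (49; 27 to 53 without 1 library, lowest without 2-week 8, and 28 without 2-week 9) and 589 against chronic morphine (345; 202 to 395, lowest without 2-week 8, and 206 without the library labelled chronic female 27). The difference between NAc and PFC (1) gave 13 with DESeq2, 0 to 1 without 1 library (0 without PFC 2-week 8 or 9), and 0 with the library number as a replicate block (limma, 1210 at an unadjusted p under 0.05). Equal numbers deviated together only weakly over 30 NAc and PFC pairs (correlation across 13012 genes from -0.04 to 0.29, median 0.12, 19 pairs over 0.1, 6 best with their own number). As the labels name no animals, the main test used no pairs. Single genes did keep a state by number: 1500015A07Rik was high in numbers 9, 10, 13 and 14 of both regions (8.16 to 18.4 CPM in the PFC). Gm1840 was lowest among saline males in number 6 of both (2.34 and 1.83 CPM). Gabra2 was highest among saline and 2-week males in numbers 6, 11 and 15 of both. Equal numbers may thus be the same animals, and the regions are not read as independent. With the on and off covariate, averaged log2 changes turned for BC002163 (0.34), Crem (-0.04), Egr1 (0), Gabra4 (-0.07), Gm10036 (0.06), Gm10263 (0.32), Gm7125 (0.08), Gnal (-0.16), Nr4a3 (-0.02), Pde1b (-0.13) and Wdfy1 (0.14); Wdfy1 was 0.01 without saline 2 and 6. The cause of these shifts was not tested. Fits without saline 2 and 6, without the libraries low in projection neuron markers and without PFC library 10 were chosen after seeing the data. Depth limits genes of a few reads, such as BC023719 and Gm12901, to bounds.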

Other observations

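Genes listed as markers of neurons of the septum, pallidum and basal forebrain (Zic1, Chat, Lhx8 and 4 others) summed to 126.8 to 219.7 CPM in saline and 157.3 to 361.0 after 2 weeks. Whether they tell these regions apart from the NAc itself was not tested. Of the 7 genes, 5 were above 0 over both sexes (median 0.35) and none was called by edgeR. At an unadjusted p under 0.05, 3 were higher, beside 2.88% of all genes: Slc5a7, Chat and Slc18a3, at 0.73, 0.76 and 0.59. Zic1 and Zic2 were at -0.23 and -0.52. In females alone 3 were higher at that threshold (median 0.68). In males alone 0 were higher and 1 was lower (median 0.15). Over both sexes without saline 2 and 6 all 7 were above 0 (median 0.44, 1 at an unadjusted p under 0.05). Microglial markers were above 0 for 7 of 8 (median 0.20), astrocyte markers for 4 of 7 (0.01), oligodendrocyte markers for 2 of 7 (-0.08), their precursors' markers for 2 of 5 (-0.09), endothelial and mural markers for 3 of 8 (-0.02), choroid plexus markers for 2 of 7 (-0.15), erythroid markers for 4 of 5 (0.36), meningeal markers for 2 of 6 (-0.06) and cortical neuron markers for 2 of 8 (-0.23); none was called. Cortical markers bear on the 24 h comparison, where their sum reached 795.7 CPM in 1 of the 24 h libraries against at most 90.0 at 2 weeks.

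Ide, the insulin-degrading enzyme gene, was at 54.95 to 80.2 CPM in the 3 saline females and at 33.7 to 45.9 in the other 12 libraries, the split of libraries seen for mt-Nd3. Reads assigned to the reporter EYFP were found in all 15 libraries, 16 to 62 a library, and none to tdTomato.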
